A study of Mus musculus with 9 samples.

Results

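The TNF receptor genes of regulatory T (Treg) cells were examined as 9 named genes: Tnfrsf18, Tnfrsf4, Tnfrsf9, Tnfrsf1b, Tnfrsf1a, Tnfrsf8, Tnfrsf25, Cd27 and Fas. They were chosen with earlier results of these data known, and all 9 were among the 13698 genes of the deposited table. Thpok and LRF are zinc finger transcription factors, encoded by Zbtb7b and Zbtb7a, and Thpok directs T cells to the CD4 lineage. The deficient cells were YFP-positive, MHC class II-negative Treg cells of the genotype LRFffThpokff Foxp3 Cre-YFP/X, in which Cre and YFP are made from a Foxp3 allele, so that both factors are deleted in the cells that express that allele. The genetic controls were YFP-positive, MHC class II-negative cells of the genotype WT Foxp3 Cre-YFP/X from other female mice, which carried the same Foxp3 allele and kept both factors. The animal controls were YFP-negative, MHC class II-negative, CD25-high cells from the same female mice as the deficient cells; they used the unmodified Foxp3 allele and so kept both genes intact. All 3 groups had 3 libraries each, and all came from spleen and lymph node of mice on a mixed C56Bl6/129 background, as the labels spell it. The sources used here give no age for the mice.

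Receptors of this superfamily bind trimeric ligands of the TNF family through cysteine-rich repeats outside the cell. Most of them recruit TRAF adaptors that activate the NF-kB transcription factors, and a subset carries a death domain that can recruit FADD and caspase-8. Treg cells are known for high surface levels of GITR (Tnfrsf18), OX40 (Tnfrsf4) and TNFR2 (Tnfrsf1b), receptors through which they are stimulated to survive and divide.

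Values are levels in CPM, read counts scaled to a common library total, which the authors deposited as log2 and whose distribution is the same in every library. Differences are log2 fold changes ± SE from limma over all 13698 genes, with n = 3 libraries against 3, and a gene was called at a Benjamini-Hochberg adjusted p under 0.05. The depth of the libraries is unknown. Zbtb7b measured 0.260 ± 0.110 CPM in deficient cells, 115 ± 30.3 CPM in genetic controls and 93.7 ± 15.0 CPM in animal controls (SD, n = 3 each), with an adjusted p of 1.03e-04 and 8.75e-05 for the deficient cells against each. Zbtb7a measured 89.5 ± 12.6 CPM in deficient cells, 90.3 ± 21.0 CPM in genetic controls and 112 ± 19.3 CPM in animal controls, and was not called; a total level does not check the deletion of a part of that gene. The 9 Treg and T cell markers were measured in every group, with a summed level of 3616 to 3993 CPM in deficient cells, 4061 to 4796 CPM in genetic controls and 5771 to 6254 CPM in animal controls. Foxp3 measured 26.5 to 35.9 CPM in deficient cells and 24.8 to 38.1 CPM in genetic controls, against 754 to 999.7 CPM in animal controls, which differ from both other groups in the Foxp3 allele used and in the gate. The summed level of the 3 measured CD8 T cell markers was 587 to 597 CPM in deficient cells, 30.6 to 94.1 CPM in genetic controls and 69.6 to 107 CPM in animal controls. In the deficient cells that sum was mostly Cd8a (354 to 390 CPM) and Cd8b1 (195 to 237 CPM). The other marker, Eomes, measured 0.859 to 6.27 CPM there, 2.28 to 9.10 CPM in genetic controls and 2.25 to 5.15 CPM in animal controls. In 5 measured myeloid markers, genetic control 8619 stood apart at 485 CPM, while the 8 other libraries lay between 96.7 and 169 CPM. The 4 measured of 7 B cell markers summed to 52.8 to 71.7 CPM in deficient cells, 13.8 to 28.5 CPM in genetic controls and 57.9 to 96.8 CPM in animal controls. In the deficient cells that sum was mostly Cd79b (45.0 to 67.1 CPM), with Ebf1 at the lowest value of the table. The 5 erythroid markers summed to 40.3 CPM in deficient library 232614 and 65.1 CPM in genetic control 8619, and to at most 1.13 CPM in the other 7 libraries. The 2 measured of 5 NK cell markers summed to at most 13.4 CPM in any library. The part of these differences in the receptor levels was not tested.

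Of the 9 receptors, Tnfrsf4 was the gene that passed the test, and it fell against both controls. In the comparison with the genetic controls limma called 1 of 9 members, where 0.869% of all genes were called; 1 was lower (0.533% of all genes) and 0 were higher (0.336% of all genes). In the comparison with the animal controls it was again 1 of 9, where 0.891% of all genes were called; 1 was lower (0.584%) and 0 were higher (0.307%). Between genetic and animal controls 0 of 9 were called, where 0.0365% of all genes were called. At an unadjusted limma p under 0.05 the members numbered 7 of 9 against the genetic controls (10.6% of all genes), 5 of 9 against the animal controls (11.9%) and 1 of 9 between the controls (6.62%). The members were chosen with earlier results of these data known, so these shares do not test them as a set. All members but Tnfrsf8 had a mean log2 level of at least that of 10 CPM, against 7550 of all 13698 genes. The members did not move in a common direction: the median log2 fold change over the 9 was -0.15 against the genetic controls and 0.11 against the animal controls, while over all genes it was 0.04 and 0.04. Both comparisons share the deficient libraries. In bulk samples such as these, fewer cells that make a receptor and less of its RNA per cell cannot be told apart.

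**Figure D1:**
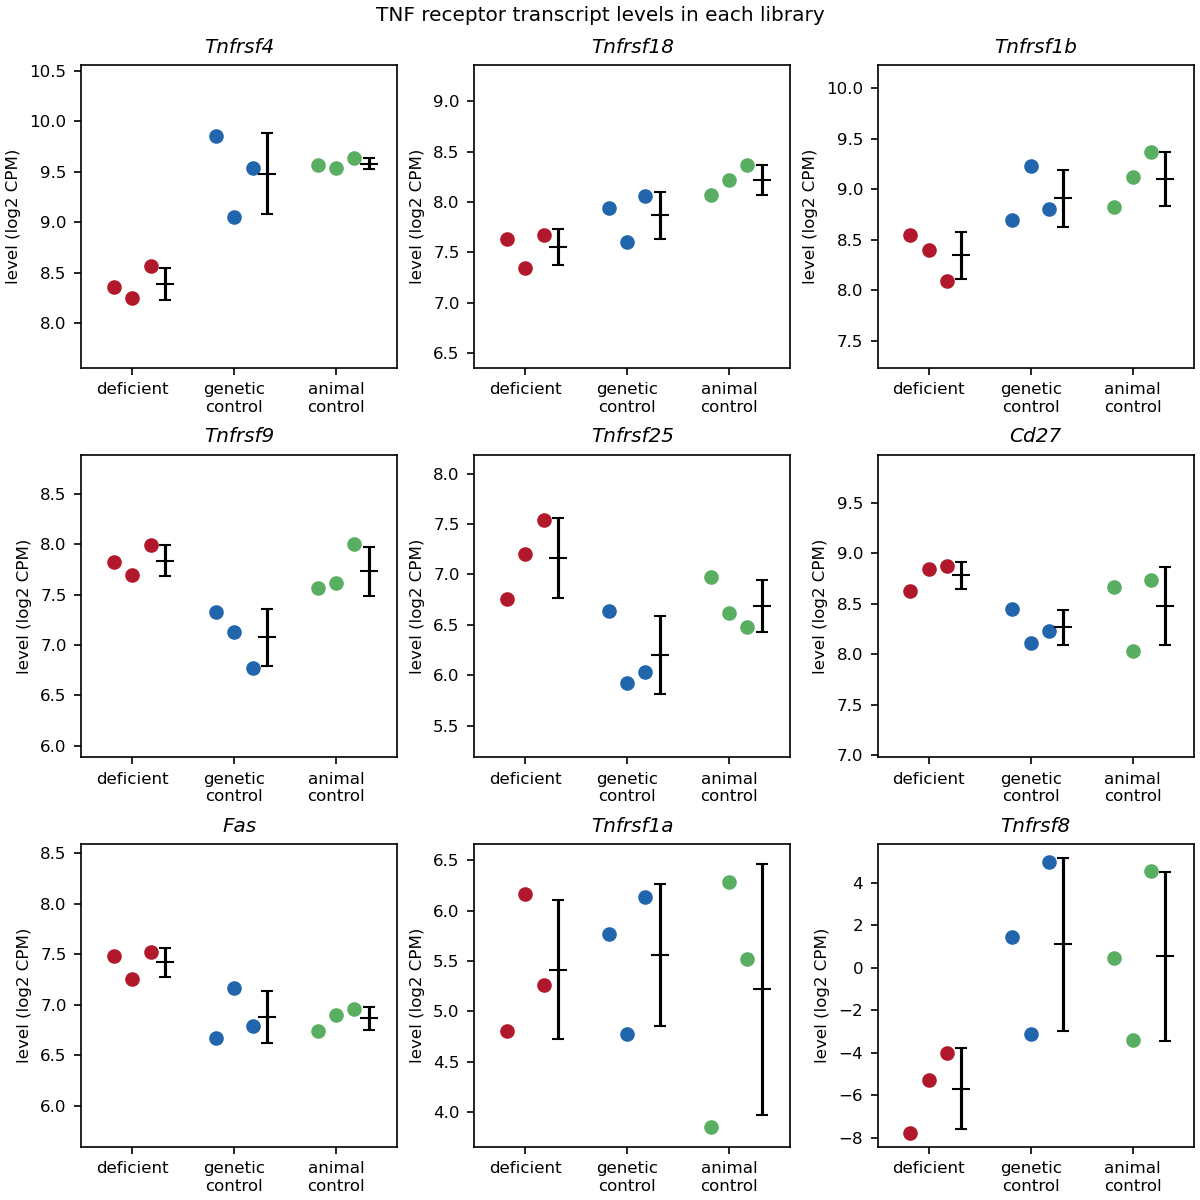
Level of each of the 9 receptors in every library (log2 CPM, y axis of at least 3 log2 units per panel) for the deficient cells, the genetic controls and the animal controls; points are libraries, and the black mark is the mean ± SD of 3. Tnfrsf4 in the 3 deficient libraries lies below all 6 control libraries, and Fas lies above them.

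Tnfrsf4 (chromosome 4, 156013843 to 156016612, plus strand, GRCm38, GENCODE M21) encodes OX40, the receptor for OX40 ligand that co-stimulates T cells. It measured 328, 305 and 378 CPM in the deficient libraries 142114, 232614 and 432614, against 924, 532 and 741 CPM in genetic controls 124, 8619 and 8800 and 761, 741 and 798 CPM in animal controls of mice 142114, 232614 and 432614. Every deficient library was below every control library, and the genetic controls spread the most. The log2 fold change was -1.09 ± 0.18 against the genetic controls (adjusted p = 0.0256) and -1.19 ± 0.18 against the animal controls (adjusted p = 0.0136). The 2 kinds of control differed by -0.10 ± 0.18 (genetic minus animal, 95% interval -0.50 to 0.30, adjusted p = 0.982).

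The fall of Tnfrsf4 kept its direction in every alternative fit, but its call was lost in many of them. Against the genetic controls its limma adjusted p was 0.242 without the variance trend (log2 fold change -1.09 ± 0.27). On only the 6 libraries compared it was 0.119 (-1.09 ± 0.21). In the fits without 1 library, Tnfrsf4 passed against the genetic controls without genetic control 8619 (adjusted p = 0.00697). It missed the threshold without genetic control 124 (0.0587) or 8800 (0.110), without deficient library 142114 (0.0818), 232614 (0.0941) or 432614 (0.0527), and without animal control 142114 (0.0516), 232614 (0.0535) or 432614 (0.0516). Against the animal controls it missed the threshold without deficient library 142114 (0.0528) or 232614 (0.0569) and without animal control 142114 (0.0594), 232614 (0.0570) or 432614 (0.0674), and it passed in the other 4 such fits. With the mouse as a fixed block over the 6 libraries of the same 3 mice, the log2 fold change was -1.19 ± 0.09 with an adjusted p of 0.160. That blocked limma fit called 0 of all 13698 genes, of which 1395 had an unadjusted p under 0.05; with the mouse as a random term limma called 148.

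A further contrast, added after the values were seen, set the deficient cells against the mean of both control groups in the same model. Tnfrsf4 fell there by 1.14 ± 0.16 on the log2 scale (limma, adjusted p = 0.00659) and passed in all 9 fits without 1 library, with adjusted p up to 0.0370. It missed the threshold without the variance trend (adjusted p = 0.113). In this contrast 1 of 9 members was called, where 1.23% of all genes were; 1 was lower (0.832% of all genes) and 0 were higher (0.394%). At an unadjusted limma p under 0.05 there were 8 of 9 members, against 12.5% of all genes.

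Tnfrsf18 (chromosome 4, 156026164 to 156028895, plus strand) encodes GITR, a co-stimulatory receptor that Treg cells carry at rest. It measured 199, 163 and 205 CPM in the deficient libraries, 245, 195 and 267 CPM in genetic controls and 268, 298 and 330 CPM in animal controls. The deficient libraries were all below the animal controls but overlapped with the genetic controls, of which 8619 was the lowest. The log2 difference was -0.31 ± 0.17 against the genetic controls (adjusted p = 0.553) and -0.66 ± 0.17 against the animal controls (adjusted p = 0.141), and neither passed the test. The genetic controls were themselves below the animal controls in every library (-0.35 ± 0.17, adjusted p = 0.768).

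Tnfrsf1b (chromosome 4, 145213463 to 145246870, minus strand) encodes TNFR2, the TNF receptor without a death domain. It measured 374, 338 and 272 CPM in the deficient libraries, 415, 601 and 448 CPM in genetic controls and 454, 557 and 659 CPM in animal controls. All 3 deficient libraries lay below all 6 controls, although the highest deficient value and the lowest control value were close. The log2 difference was -0.57 ± 0.19 against the genetic controls (adjusted p = 0.290), -0.76 ± 0.19 against the animal controls (adjusted p = 0.129) and -0.66 ± 0.17 against the mean of both (adjusted p = 0.106). The genetic control with the highest Tnfrsf1b was 8619, the library with the most myeloid transcripts; without it the difference from the genetic controls was -0.41 ± 0.19 (adjusted p = 0.580). The part of myeloid transcripts in this value was not tested.

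Tnfrsf9 (chromosome 4, 150914562 to 150946102, plus strand) encodes CD137, a co-stimulatory receptor induced by T cell activation. It measured 226, 207 and 255 CPM in the deficient libraries, against 161, 140 and 109 CPM in genetic controls and 190, 196 and 257 CPM in animal controls. The deficient libraries were all above the genetic controls and overlapped with the animal controls. The log2 difference was 0.76 ± 0.20 against the genetic controls (adjusted p = 0.150) and 0.11 ± 0.20 against the animal controls (95% interval -0.33 to 0.55, adjusted p = 0.905). The genetic controls were below the animal controls in every library (-0.65 ± 0.20, adjusted p = 0.544). Of the 9 members it was the one with an unadjusted limma p under 0.05 between the 2 kinds of control.

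Cd27 (chromosome 6, 125232622 to 125237010, minus strand) encodes the receptor for CD70. It measured 395, 461 and 470 CPM in the deficient libraries, 350, 277 and 301 CPM in genetic controls and 405, 263 and 428 CPM in animal controls. The deficient libraries were all above the genetic controls, whereas animal control 232614 was far below the 2 other animal controls and these overlapped with the deficient cells. The log2 difference was 0.52 ± 0.19 against the genetic controls (adjusted p = 0.350) and 0.30 ± 0.19 against the animal controls (adjusted p = 0.593).

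Tnfrsf8 (chromosome 4, 145267137 to 145315164, minus strand) encodes CD30, a receptor of activated lymphocytes. It measured 0.00457, 0.0260 and 0.0612 CPM in the deficient libraries, against 2.76, 0.115 and 31.4 CPM in genetic controls and 1.37, 0.0959 and 23.5 CPM in animal controls. The first of these values is the lowest in the table. The deficient libraries were the lowest, but each control group had a library as low as about 0.1 CPM and a library above 20 CPM, and the adjusted p was 0.379 against the genetic and 0.385 against the animal controls. Its fold change in deficient cells is not given, since it would rest on values near the lowest in the table.

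Of the receptors with a death domain, none was called by limma. Fas (chromosome 19, 34290666 to 34327772, plus strand) encodes the receptor for Fas ligand that can trigger apoptosis. It measured 178, 153 and 184 CPM in the deficient libraries, against 102, 144 and 111 CPM in genetic controls and 107, 119 and 124 CPM in animal controls. Every deficient library was above every control library. The log2 difference was 0.54 ± 0.19 against the genetic controls (adjusted p = 0.323), 0.55 ± 0.19 against the animal controls (adjusted p = 0.285) and 0.55 ± 0.17 against the mean of both (adjusted p = 0.187), so it did not pass the test. Fas was nearly equal in both kinds of control (0.01 ± 0.19, 95% interval -0.42 to 0.44).

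Tnfrsf25 (chromosome 4, 152115934 to 152120119, plus strand) encodes DR3, whose ligand TL1A is known to expand Treg cells in mice. It measured 108, 147 and 186 CPM in the deficient libraries, 99.7, 60.7 and 65.5 CPM in genetic controls and 126, 98.0 and 89.3 CPM in animal controls. The deficient libraries were all above the genetic controls, and the lowest of them was below the highest animal control. The log2 difference was 0.97 ± 0.28 against the genetic controls (adjusted p = 0.212) and 0.47 ± 0.28 against the animal controls (adjusted p = 0.564). Tnfrsf1a (chromosome 6, 125349362 to 125362484, plus strand) encodes TNFR1, the TNF receptor with a death domain. It measured 28.0, 71.8 and 38.4 CPM in the deficient libraries, 54.4, 27.4 and 70.5 CPM in genetic controls and 14.4, 78.0 and 46.0 CPM in animal controls. The groups overlapped fully, and the 95% interval of the log2 difference ran from -1.58 to 1.28 against the genetic controls. Against the animal controls it ran from -1.24 to 1.62, so a change of a full log2 unit either way was not excluded.

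**Figure D2:**
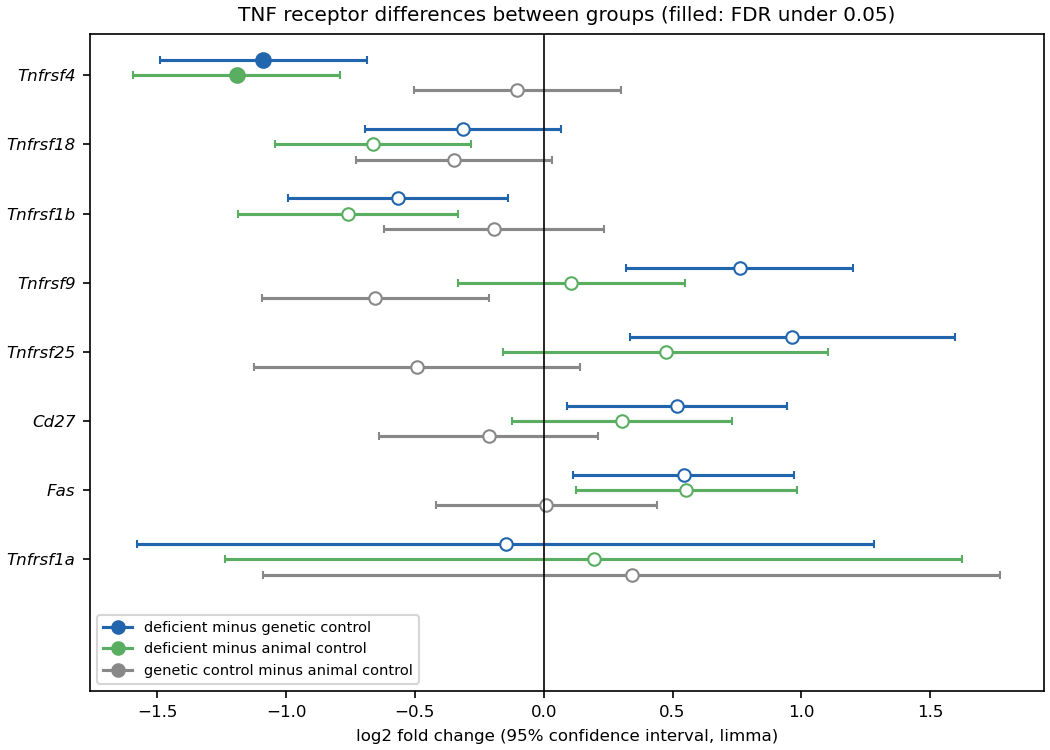
Log2 fold change of 8 receptors with its 95% confidence interval (limma) for deficient minus genetic control, deficient minus animal control and genetic minus animal control; filled points had an adjusted p under 0.05. Tnfrsf4 holds the filled points, at -1.09 and -1.19; Tnfrsf8 is left out because its values are near the lowest in the table.

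Counted by overlap, 7 of 9 receptors separated the deficient cells from the genetic controls without overlap, where 15.7% of all genes did so. Of these, 4 were higher (Tnfrsf9, Tnfrsf25, Cd27 and Fas; 8.44% of all genes) and 3 were lower (Tnfrsf4, Tnfrsf1b and Tnfrsf8; 7.28% of all genes). From the animal controls 5 of 9 separated, where 15.9% of all genes did so, with Fas higher (7.85% of all genes) and Tnfrsf4, Tnfrsf18, Tnfrsf1b and Tnfrsf8 lower (8.1% of all genes). Between the 2 kinds of control 2 of 9 separated, where 10.4% of all genes did so; Tnfrsf18 and Tnfrsf9 were lower in the genetic controls (5.57% of all genes) and 0 were higher (4.88%). From all 6 control libraries together 4 of 9 separated, where 6.8% of all genes did so, with Fas higher (3.47%) and Tnfrsf4, Tnfrsf1b and Tnfrsf8 lower (3.33%). Since the members were chosen with earlier results of these data known, these counts are a description. Exact permutation of 3 libraries against 3 gives no p below 0.1, so no such test is reported.

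The balance between Tnfrsf9 and Tnfrsf4 was also read within each library. It is one of 4 pairs computed, which were chosen with the values known and are described without a test. The difference in log2 CPM, Tnfrsf9 minus Tnfrsf4, was -0.54, -0.56 and -0.57 in the deficient libraries, -2.52, -1.92 and -2.76 in the genetic controls and -2.0, -1.92 and -1.64 in the animal controls. The deficient libraries lay close together and apart from all 6 controls, as they already did for Tnfrsf4 alone. The neighbouring genes Tnfrsf4 and Tnfrsf18 also shifted against each other. Their difference, Tnfrsf4 minus Tnfrsf18, was 0.72, 0.91 and 0.88 in the deficient libraries, 1.91, 1.45 and 1.47 in the genetic controls and 1.51, 1.32 and 1.27 in the animal controls, with no overlap between the deficient cells and either control. Tnfrsf9 minus Tnfrsf18 ranged from 0.18 to 0.35 in the deficient libraries, from -1.29 to -0.48 in the genetic controls and from -0.60 to -0.37 in the animal controls. For Tnfrsf1b minus Tnfrsf1a the groups overlapped, with 2.23 to 3.74 in the deficient libraries, 2.67 to 4.45 in the genetic controls and 2.84 to 4.98 in the animal controls.

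**Figure D3:**
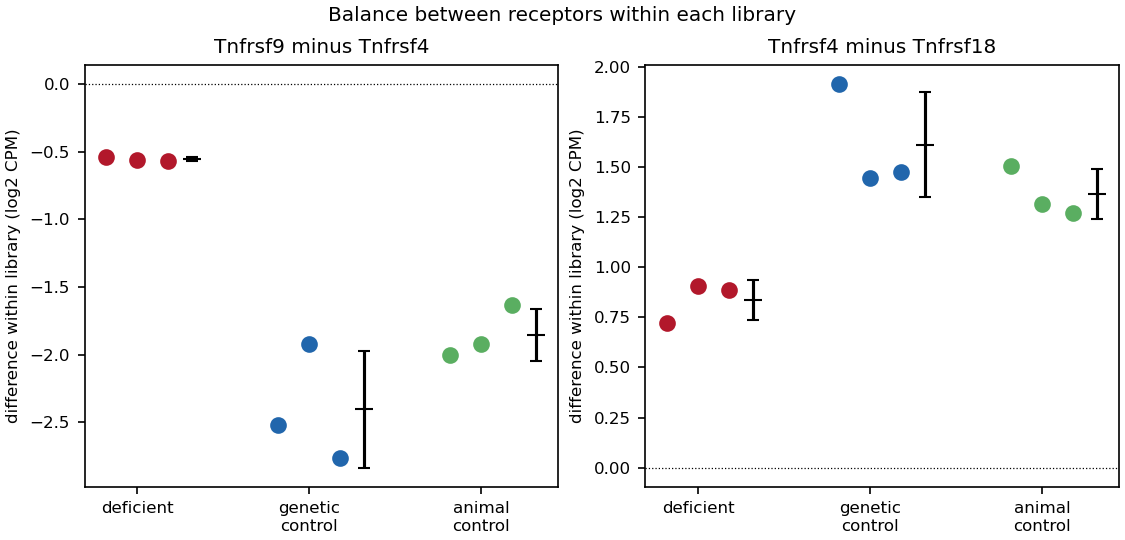
Difference in log2 CPM between a pair of receptors within each library, for Tnfrsf9 minus Tnfrsf4 (left) and Tnfrsf4 minus Tnfrsf18 (right); points are libraries, and the black mark is the mean ± SD of 3. The deficient libraries lie between -0.57 and -0.54 on the left, above all controls, and between 0.72 and 0.91 on the right, below all controls.

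The promoters of Tnfrsf4 and Tnfrsf9 are shown as those of the first pair above, which was chosen with the values known. Sequences are from RefSeq (GRCm38.p6) and cover 250 bases before and 50 after the annotated start; all 9 members matched, with 11 promoters. The table has 2 starts for Tnfrsf9, and the one shown, which held more of the motifs searched, is at chr4:150927749-150928048 on the plus strand; Tnfrsf4 is at chr4:156013445-156013744 on the plus strand.
Tnfrsf4: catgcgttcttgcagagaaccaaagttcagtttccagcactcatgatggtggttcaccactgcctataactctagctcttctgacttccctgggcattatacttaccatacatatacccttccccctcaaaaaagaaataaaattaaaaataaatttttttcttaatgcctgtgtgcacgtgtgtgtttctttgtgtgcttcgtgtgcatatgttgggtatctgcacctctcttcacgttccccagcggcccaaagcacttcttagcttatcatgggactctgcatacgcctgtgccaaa
Tnfrsf9: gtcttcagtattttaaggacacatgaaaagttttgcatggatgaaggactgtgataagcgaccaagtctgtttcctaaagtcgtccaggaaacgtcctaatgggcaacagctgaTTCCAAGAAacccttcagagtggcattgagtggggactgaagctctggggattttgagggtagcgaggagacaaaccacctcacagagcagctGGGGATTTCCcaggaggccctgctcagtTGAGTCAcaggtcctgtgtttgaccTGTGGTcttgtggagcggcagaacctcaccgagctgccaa
Capitals mark matches, on either strand, to a STAT motif (TTCNNNGAA), an NF-kB motif (GGG, any 3 bases, then TTCC), an AP-1 motif (TGANTCA) and a RUNX motif (TGTGGT). In the Tnfrsf9 window their first bases were at -136, -43, -15 and 11 from the start, and no match overlapped another. The Tnfrsf4 window and the other Tnfrsf9 window held no match to these letters. The Tnfrsf4 window, placed by the RefSeq start, ends before the GENCODE gene start at 156013843. Among the other members, the STAT letters occurred in windows of Tnfrsf18, Tnfrsf1a, Tnfrsf1b, Tnfrsf25 and Fas. The NF-kB and RUNX letters occurred in a window of Tnfrsf25, and the AP-1 letters in those of Fas and Tnfrsf8. Of 32851 mouse promoter windows of the same length, 8.30% held the STAT letters, 5.56% the NF-kB letters, 7.81% the AP-1 letters and 16.8% the RUNX letters. A match to such short letters is a description of the sequence.

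Tnfrsf4, Tnfrsf18, Tnfrsf9, Tnfrsf1b, Tnfrsf8 and Tnfrsf25 lie on chromosome 4, and Tnfrsf4 ends 9551 bases before Tnfrsf18 starts. On the other side of Tnfrsf4 lies Sdf4, which encodes a calcium-binding protein of the Golgi; it measured 596 ± 48.6 CPM in deficient cells, 507 ± 37.4 CPM in genetic controls and 593 ± 59.8 CPM in animal controls (SD, n = 3 each). Its log2 difference was 0.23 ± 0.11 against the genetic controls (adjusted p = 0.516) and 0.01 ± 0.11 against the animal controls (adjusted p = 0.999). Within 250 kb of the Tnfrsf4 start, 18 other protein-coding genes were in the table, Tnfrsf18 among them. Of these limma called 0 in either comparison, beside 0.869% and 0.891% of all genes against the genetic and animal controls. At an unadjusted limma p under 0.05 there was 1 against the genetic controls, Acap3, beside 10.6% of all genes. There were 2 against the animal controls, Tnfrsf18 and 9430015G10Rik, beside 11.9% of all genes. Counts this small among 18 genes do not set the region apart. Acap3 averaged 34.3 ± 8.65 CPM in deficient cells, 4.02 ± 6.31 CPM in genetic controls and 11.9 ± 2.17 CPM in animal controls (log2 difference 4.84 ± 1.20, adjusted p = 0.126, and 1.52 ± 1.20, adjusted p = 0.702). 9430015G10Rik averaged 6.50 ± 11.2 CPM in deficient cells, 6.79 ± 6.55 CPM in genetic controls and 22.4 ± 20.4 CPM in animal controls (adjusted p = 0.744 and 0.405). The 11 genes whose log2 levels averaged at least that of 10 CPM over the 9 libraries, which leaves out both of these, had log2 differences between -0.48 and 0.43 against the genetic controls and between -0.99 and 0.86 against the animal controls. Tnfrsf1b and Tnfrsf8 are also neighbours, 20266 bases apart. Genes next to other members, such as Park7 beside Tnfrsf9, Espn beside Tnfrsf25, Tapbpl beside Cd27, and Stambpl1 and Lipa beside Fas, were not called and had adjusted p between 0.318 and 0.992 against the genetic controls.

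**Figure D4:**
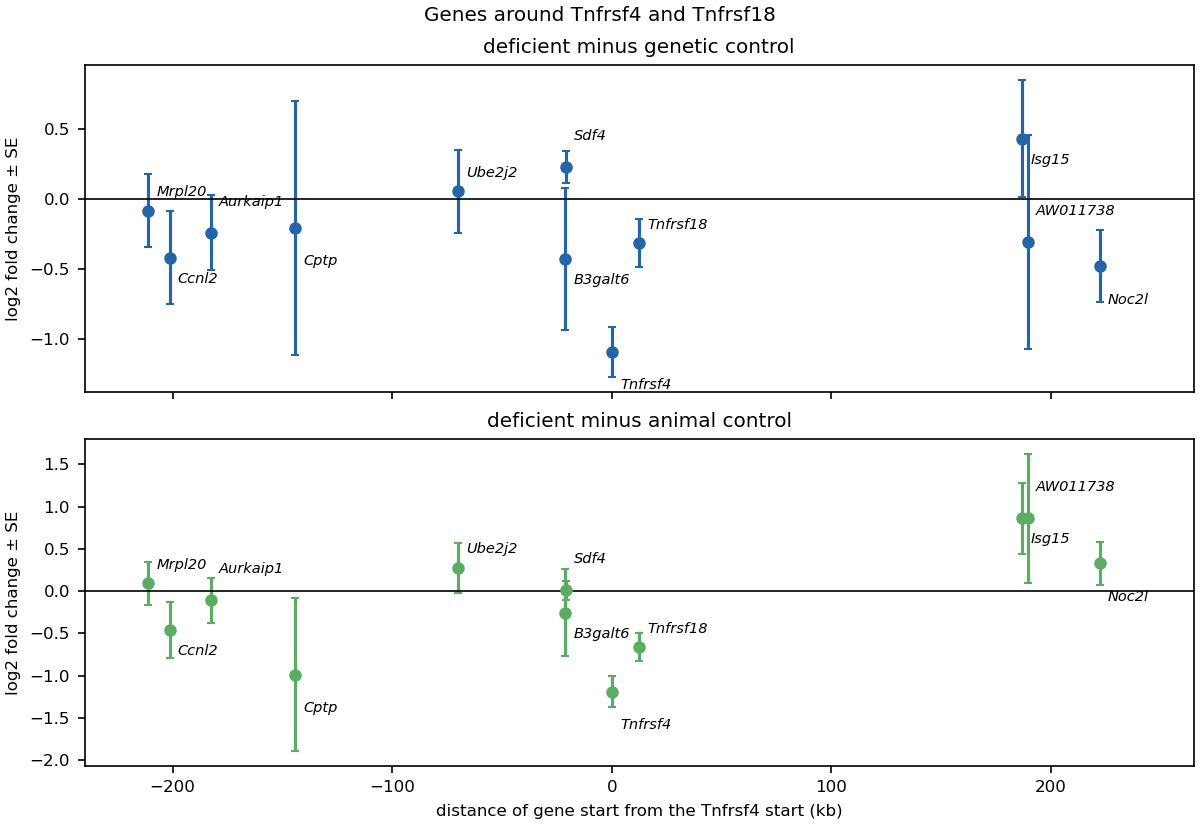
Log2 fold change ± SE of genes whose log2 levels average at least that of 10 CPM by the distance of their start from the Tnfrsf4 start (kb), for deficient minus genetic control (top) and deficient minus animal control (bottom). Among the genes drawn Tnfrsf4 is the lowest in both panels, at -1.09 and -1.19, with Sdf4 at 0.23 and 0.01; Acap3 and 9430015G10Rik fall under the level and are not drawn.

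Levels of different receptors were compared per kilobase of merged exon length. In the deficient cells the order was Tnfrsf4 (247 ± 27.4 CPM per kb), Cd27 (190 ± 17.5 CPM per kb) and Tnfrsf18 (124 ± 15.0 CPM per kb), and the ranges of these did not overlap. Tnfrsf1b (85.9 ± 13.6 CPM per kb), Tnfrsf9 (84.2 ± 8.94 CPM per kb), Fas (83.3 ± 8.13 CPM per kb) and Tnfrsf25 (64.6 ± 17.3 CPM per kb) followed with overlapping ranges, and Tnfrsf1a (17.8 ± 8.82 CPM per kb) lay below them. In the genetic controls Tnfrsf4 (536 ± 144 CPM per kb) was far above the rest, and Tnfrsf18 (155 ± 24.0 CPM per kb), Cd27 (133 ± 16.0 CPM per kb) and Tnfrsf1b (128 ± 26.0 CPM per kb) overlapped. Fas (57.6 ± 10.7 CPM per kb) and Tnfrsf9 (50.2 ± 9.54 CPM per kb) overlapped as well, above Tnfrsf1a (19.6 ± 8.41 CPM per kb), while Tnfrsf25 (33.1 ± 9.33 CPM per kb) overlapped with Tnfrsf9 and by a little with Tnfrsf1a. In the animal controls Tnfrsf4 stood at 562 ± 21.2 CPM per kb, above Tnfrsf18 (196 ± 20.5 CPM per kb), Cd27 (157 ± 38.4 CPM per kb) and Tnfrsf1b (146 ± 26.9 CPM per kb). The range of Cd27 overlapped with those of Tnfrsf18 and Tnfrsf1b, and these last did not overlap with each other. Tnfrsf9 (78.7 ± 13.5 CPM per kb) was above Fas (56.7 ± 4.34 CPM per kb), which overlapped with Tnfrsf25 (45.9 ± 8.47 CPM per kb), and Tnfrsf1a (17.8 ± 12.3 CPM per kb) was lower. Tnfrsf8 was the lowest in each group. The order depends on the length used. Per coding length, Cd27 came before Tnfrsf4 in the deficient cells, but not in the controls. Tnfrsf18 then moved from rank 3 to 5 in the deficient cells and from 2 to 4 in both controls. Per longest transcript, Tnfrsf1b moved from rank 4 to 7 in the deficient cells.

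The genes whose log2 levels were most like those of Tnfrsf4 over the 9 libraries, among 7549 others whose mean log2 level was at least that of 10 CPM, were Cd4 (Pearson r = 0.983), Ptpn7 (r = 0.959) and Samhd1 (r = 0.956). Cd4 encodes a co-receptor of the T cell receptor and fell by 1.27 and 1.32 on the log2 scale against the genetic and the animal controls. Ptpn7 encodes a phosphatase of lymphocytes and Samhd1 a dNTP hydrolase, and limma called both of them lower against both controls as well. For Tnfrsf18 the nearest were Gbp2 (r = 0.966), Hsp90b1 (r = 0.929) and Ckb (r = 0.917), for Tnfrsf9 Bod1 (r = 0.944), Pacsin1 (r = 0.911) and Thoc6 (r = 0.910), and for Tnfrsf1b Bmp7 (r = 0.964), Mlec (r = 0.962) and Lbh (r = 0.941). For Fas they were Tubb5 (r = 0.938), Pycard (r = 0.938) and Msh3 (r = 0.936), for Cd27 Cct7 (r = 0.954), Elf1 (r = 0.937) and Polr2k (r = 0.920), for Tnfrsf25 Sf3b4 (r = 0.941), Gpr107 (r = 0.934) and Cnbp (r = 0.906), and for Tnfrsf1a Lrp6 (r = 0.927), Polr2h (r = 0.910) and Sdhd (r = 0.909). The 9 points fall into 3 groups and these are the highest of many values, so they are given as a description.

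Among the other receptors of the superfamily, 10 of 19 listed genes were in the table and limma called 0 higher and 0 lower against either control, with 0 at an unadjusted p under 0.05. Over all genes, 0.869% and 0.891% were called against the genetic and animal controls and 10.6% and 11.9% had an unadjusted p under 0.05. The median log2 difference of the 10 receptors was 0.19 against the genetic controls and 0.54 against the animal controls. Over all genes it was 0.04 in both comparisons. Of the 10 receptors, 4 had a mean log2 level of at least that of 10 CPM, so these medians rest in part on low and uneven levels. Relt, a receptor of lymphoid tissue, measured 80.0, 46.1 and 49.1 CPM in the deficient libraries, 38.4, 44.9 and 38.0 CPM in genetic controls and 17.7, 53.6 and 30.7 CPM in animal controls (adjusted p = 0.763 and 0.454). Tnfrsf13c, the BAFF receptor of B cells, was at or below 0.0751 CPM in 2 deficient libraries and at 10.4 CPM in the other. Cd40, the receptor of antigen-presenting cells for CD40 ligand, was at the lowest value of the table in all 3 deficient libraries and at up to 1.78 CPM in the genetic and 1.01 CPM in animal controls. Tnfrsf14, the receptor for LIGHT, measured 2.14 to 6.01 CPM in deficient cells, 4.10 to 16.4 CPM in genetic controls and 0.175 to 7.84 CPM in animal controls.

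Of the ligands, 11 of 17 listed genes were in the table, and limma called 0 higher and 0 lower against either control, with 4 and 2 of the 11 at an unadjusted p under 0.05 against the genetic and animal controls, beside 10.6% and 11.9% of all genes. The median log2 difference was -1.15 and -1.34, beside 0.04 and 0.04 over all genes, and 6 of the 11 had a mean log2 level of at least that of 10 CPM. Tnfsf14, which encodes LIGHT, measured 0.110, 0.0260 and 0.418 CPM in the deficient libraries, against 9.95, 1.16 and 16.5 CPM in genetic controls and 23.7, 13.3 and 13.4 CPM in animal controls. All deficient libraries were below all controls (adjusted p = 0.120 and 0.0511), and the added contrast with the mean of both controls called it lower (adjusted p = 0.0366). That call was lost in 7 of the 9 fits without 1 library, with adjusted p up to 0.0981, and held without genetic control 8619 or deficient library 432614. Ltb, a chain of lymphotoxin, averaged 1987 CPM in deficient cells, 1532 CPM in genetic controls and 1947 CPM in animal controls (0.38 ± 0.10, adjusted p = 0.161, and 0.03 ± 0.10, adjusted p = 0.959). Tnfsf10, which encodes the death ligand TRAIL, measured 11.0 to 15.6 CPM in deficient cells, 15.3 to 30.0 CPM in genetic controls and 42.7 to 53.7 CPM in animal controls (-0.69 ± 0.40, adjusted p = 0.581, and -1.88 ± 0.40, adjusted p = 0.0696).

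All 25 adaptors and proximal signalling genes were in the table, and limma called 0 higher and 0 lower against either control, with 2 of the 25 at an unadjusted p under 0.05 in each comparison, beside 10.6% and 11.9% of all genes. The median log2 differences were -0.13 and -0.03. Traf4, a TRAF family adaptor, measured 96.1, 152 and 84.3 CPM in the deficient libraries, against 40.7, 39.0 and 48.1 CPM in genetic controls and 48.4, 42.1 and 45.3 CPM in animal controls. Every deficient library was above every control (1.34 ± 0.28, adjusted p = 0.0748, and 1.25 ± 0.28, adjusted p = 0.0914). The added contrast called it higher (1.29 ± 0.25, adjusted p = 0.0383), and the call was lost in all 9 fits without 1 library, with adjusted p between 0.0531 and 0.143. Traf1, an adaptor of TNFR2 and OX40 among others, measured 96.6 to 160 CPM in deficient cells, 155 to 233 CPM in genetic controls and 152 to 232 CPM in animal controls (adjusted p = 0.485 and 0.333). Mlkl, the effector of necroptosis, was at the lowest value of the table in all deficient libraries, at 4.82 to 7.87 CPM in genetic controls, and in 2 of 3 animal controls at the lowest value as well (adjusted p = 0.120 and 0.722).

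All 24 genes of the NF-kB list were in the table, and limma called 0 higher and 0 lower against either control, with 3 and 6 of the 24 at an unadjusted p under 0.05, beside 10.6% and 11.9% of all genes. The median log2 differences were -0.18 and -0.38. Nfkbia, the inhibitor IkB-alpha that NF-kB itself induces, measured 565, 513 and 483 CPM in the deficient libraries, against 767, 653 and 632 CPM in genetic controls and 726, 714 and 674 CPM in animal controls. The deficient libraries were all below the controls (-0.39 ± 0.11, adjusted p = 0.163, and -0.44 ± 0.11, adjusted p = 0.112; mean of both controls -0.41 ± 0.09, adjusted p = 0.0695). Malt1, a signalling paracaspase, measured 21.7 to 40.6 CPM in deficient cells, 55.2 to 104 CPM in genetic controls and 23.6 to 61.9 CPM in animal controls (adjusted p = 0.271 and 0.710). Nfkbid encodes a member of the IkB family. It measured 18.1 to 42.1 CPM in deficient cells, 27.1 to 59.8 CPM in genetic controls and 49.2 to 101 CPM in animal controls. Its limma adjusted p was 0.713 against the genetic and 0.175 against the animal controls.

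**Figure D5:**
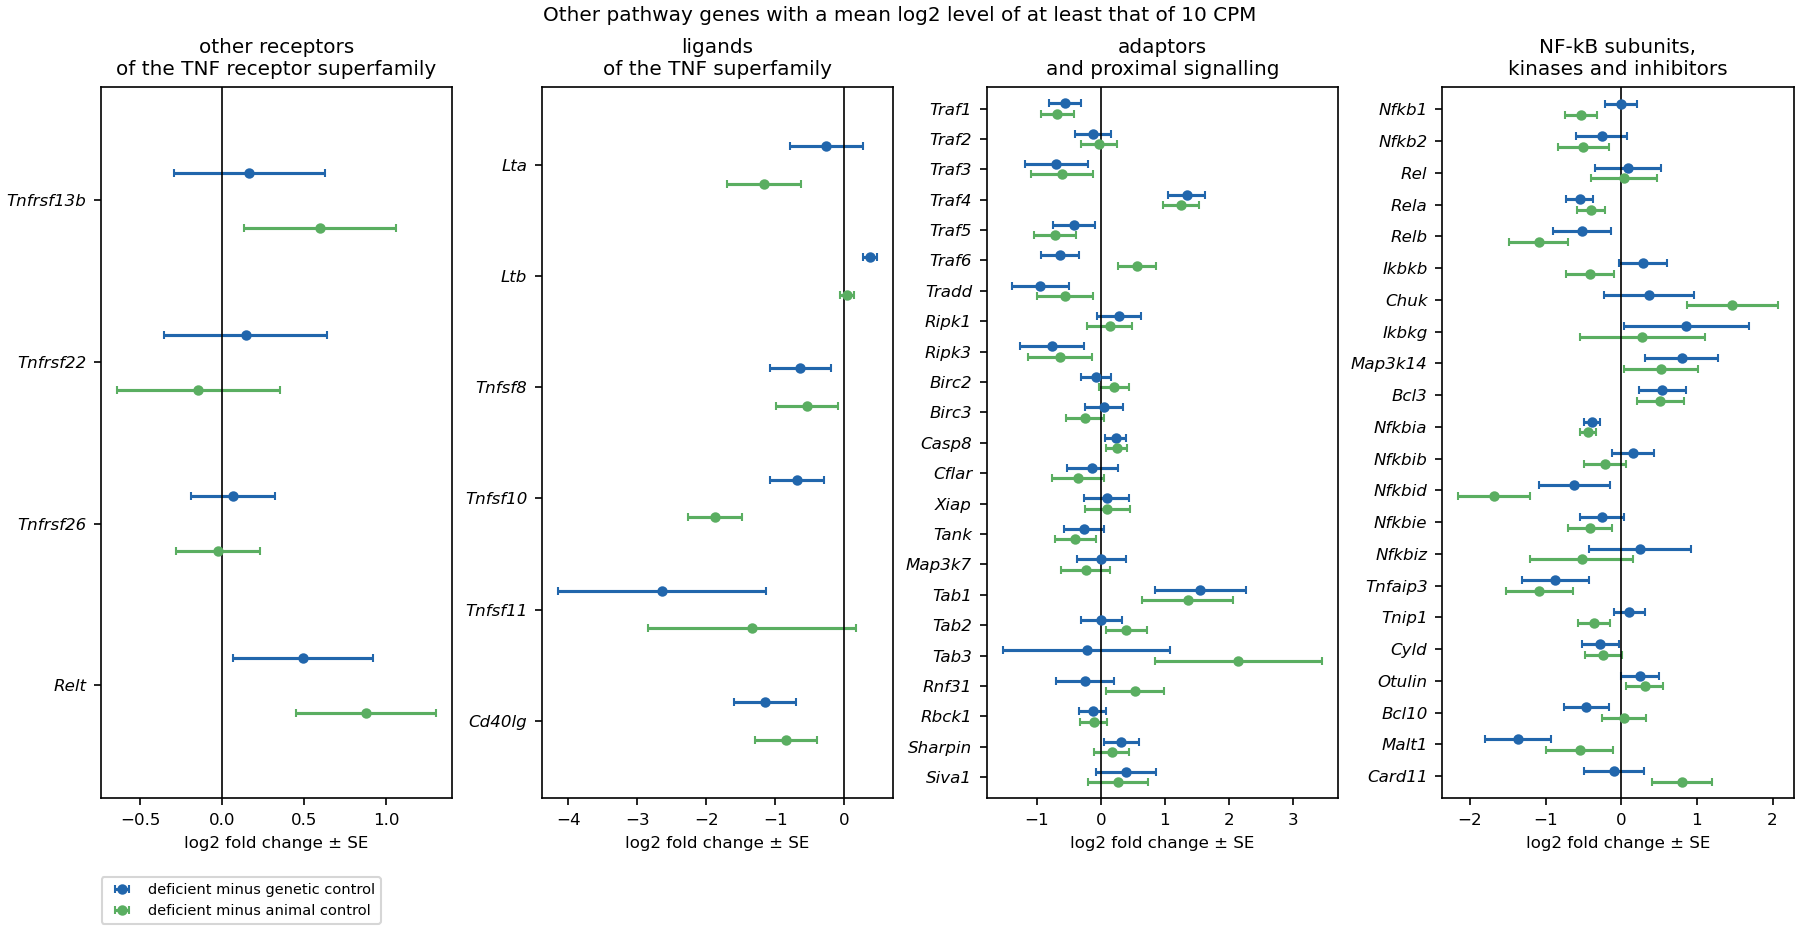
Log2 fold change ± SE of the other receptors, ligands, adaptors and NF-kB genes whose log2 levels average at least that of 10 CPM, for deficient minus genetic control and deficient minus animal control (limma, n = 3 against 3). None of those drawn had an adjusted p under 0.05 in either comparison; Traf4 lies at 1.34 and 1.25 and Nfkbia at -0.39 and -0.44.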

How the data were processed

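The 9 libraries hold RNA of sorted Treg cells, amplified with a low-input cDNA kit and tagmented, per the labels' protocols. The submitters' processing notes name bcl2fastq 1.8.4, STAR 2.4.0h, limma and the build mm10; the sources used here do not name the counter, annotation or normalization. The authors deposited log2 values. Their unit was read from the values as quantile-normalized log2 CPM: linear values sum to 999252 to 999256 in every library and the extremes are equal in all columns. Equal values in different libraries can follow from that normalization.

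Of 13702 rows, 4 exact duplicates were dropped. limma-trend (limma 3.58.1 in R 4.3.3) was fitted to the group means of all 9 libraries, with no filter or pseudocount and Benjamini-Hochberg adjustment over all genes. On simulated data with independent normal noise, changes were put into genes with a mean log2 level of at least that of 10 CPM. Against the genetic controls limma called 63 of 100 genes changed by 2 log2 units and 77 of 100 changed by 3. Against the animal controls it called 62 and 76 of 100. Smaller changes, such as those of most members, and changes in genes under that level, such as Tnfrsf8, were not simulated. The p-values rest on the spread between libraries within groups, shrunk toward a trend over all genes, and treat the 9 libraries as independent. The members, lists and named-gene rule (all members, the called or lowest-p list genes, the genes most like each member, and the nearest neighbours) were chosen with earlier results of these data known. Deficient cells and animal controls share mice: same-mouse libraries had correlations of deviations from group means of 0.0483, 0.0202 and 0.0170 across 7550 genes with a mean log2 level of at least that of 10 CPM; such limits always refer to the mean of log2 values, which leaves out genes with uneven levels. Lengths and positions are from GENCODE M21 (GRCm38).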

Additional observations from a re-analysis of the deposited data

How the results depend on the processing

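Counts of called genes were the most sensitive. Against the genetic controls limma called 119 genes (1 member); on the 6 libraries alone it called 22 (0 members), without the trend 0 members, and without 1 library 48 to 93 (0 to 1 members). Against the animal controls it called 122 (1 member); on the 6 libraries alone 52, with the mouse as a fixed replicate block 0 (0 members), without the trend 0 members, and without 1 library 58 to 115 (0 to 1 members). Between the controls it called 5, without the trend 32, on the 6 libraries alone 3, and without 1 library 4 to 10. Against the mean of both controls, added after the data were seen, it called 168 (1 member) and without the trend 0 members. The cause of these changes in count was not tested. The fits on fewer libraries also had fewer samples. The replicate block, with the mouse as a random term, changed no call of a member. Signs turned among uncalled values when 1 library was left out: Tnfrsf1a ranged from -0.54 to 0.15 against the genetic controls, -0.49 to 0.73 against the animal controls, -0.34 to 0.87 between the controls and -0.35 to 0.32 against the mean of both, and between the controls Tnfrsf4 ranged from -0.29 to 0.11, Fas from -0.13 to 0.11 and Tnfrsf8, whose values rest in part on levels near 0.1 CPM, from -1.40 to 2.68. Filters on the mean of the log2 levels, at that of 1 or 10 CPM, a pseudocount of 1 CPM, recentring and robust shrinkage kept the direction and call of every member tested, Tnfrsf8 being removed by both filters. Depth is unknown, so the precision at low levels, as for Tnfrsf8, cannot be stated.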

Other observations

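Some members varied together over the 9 libraries, given here as descriptions of points that fall into 3 groups and chosen after the values were seen. Tnfrsf4 and Tnfrsf18 had a Pearson r of 0.846 in log2 CPM, Tnfrsf25 and Cd27 of 0.772, and Tnfrsf4 and Fas of -0.911.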
